A study of Capra hircus with 2 samples.

Results

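The DLK1-DIO3 imprinted miRNA cluster was examined in small RNA libraries of the mammary gland of Xinong Saanen dairy goats. A conserved miRNA of the study's list was taken as a member where its number was one of 43 numbers known from the cluster, and 43 of the 346 conserved miRNAs were chosen in this way. They covered 37 of the 43 numbers, since miR-300, miR-431, miR-654, miR-668, miR-889 and miR-1193 had no entry in that list. The members came from 15 5p arms and 28 3p arms and were 19 to 23 nt long. Mammary RNA of 3 goats aged 2.5 years was pooled per stage into a dry period (D) library and a peak lactation (P) library. Per the study's methods the D goats were sampled 320 days after lambing and the P goats 75 days after it, whereas the sample labels exchange these days, and the stages were taken from the titles. No treatment or genetic change was applied. Because each stage was 1 pooled library, the spread between goats was not measured, and each p-value and interval compares the reads of 2 libraries and not the stages.

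The cluster lies in an imprinted region between the protein-coding genes DLK1 and DIO3. The miRNAs are processed from long non-coding RNAs of the maternally inherited chromosome, while DLK1, RTL1 and DIO3 are expressed from the paternal one. A first group of hairpins lies near MEG3 and antisense to RTL1, and a long tandem array from miR-379 to miR-410 lies further downstream. The cluster is known for high expression in the embryo, placenta and brain and for lower expression in most adult tissues. A miRNA recognises its targets mainly through the seed, bases 2 to 8 counted from the 5′ end.

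In the goat annotation of RefSeq (assembly ARS1.2), 39 of the 43 members were matched by number to 38 miRNA genes on 1 chromosome, and miR-299, miR-370, miR-539 and miR-541 were not matched. The order was miR-493, miR-665, miR-433, miR-127, miR-432 and miR-136, followed by the array, which began with miR-379 and miR-411. The genes of miR-433, miR-127, miR-432 and miR-136 lay within the span of RTL1.

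The listed sequences of the 23 miRNAs that the results turn on are shown with the seed in capitals, because the counts, the shifted ends and the base changes described for these miRNAs are all set against them. The group around RTL1 and MEG3 is shown first, the array follows in chromosomal order.
miR-493: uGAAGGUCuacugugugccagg
miR-665: aCCAGUAGgccgaggccccuca
miR-433: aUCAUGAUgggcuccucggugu
miR-127: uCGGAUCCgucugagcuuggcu
miR-432: uCUUGGAGuaggucauugggu
miR-136: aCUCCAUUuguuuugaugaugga
miR-379: uGGUAGACuauggaacguaggc
miR-411: aUAGUAGAccguauagcguac
miR-380-3p: uAUGUAAUgugguccacgucu
miR-323: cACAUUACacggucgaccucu
miR-329a: aACACACCugguuaaccuuuu
miR-494: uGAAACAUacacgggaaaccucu
miR-543: aAACAUUCgcggugcacuucuuu
miR-495: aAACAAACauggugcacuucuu
miR-376c: gGUGGAUAuuccuucuauguuu
miR-376d: aUCAUAGAggaaaauccacau
miR-376b: aUCAUAGAggaaaauccaugu
miR-376a: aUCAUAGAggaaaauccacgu
miR-487b: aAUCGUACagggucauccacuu
miR-382: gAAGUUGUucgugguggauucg
miR-485: aGAGGCUGgccgugaugaauucg
miR-369-3p: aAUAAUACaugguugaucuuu
miR-369-5p: aGAUCGACcguguuauauucg

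The 43 members carried 41 distinct seeds. The only seed shared within the cluster was that of miR-376a, miR-376b and miR-376d, which differ in their 3′ parts. The seed of miR-329a was also that of miR-362-3p, and the seed of miR-381 was also that of let-7a*, both of which lie outside the cluster.

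Clean reads numbered 14851375 in D and 15712891 in P. Each tag was assigned to the conserved miRNA that it matched furthest from its first base without a mismatch, over 18 nt or more. Conserved miRNAs took 61.1% of the clean reads in the D library and 14.4% in the P library. Log2 ratios of peak lactation over dry period per clean read were below 0 for 247 of the 257 conserved miRNAs tested, and those of the members are also read relative to the median of all, a difference that no scaling of the libraries alters.

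The cluster made up a small part of the mammary miRNAs in both libraries. Its members summed to 19425 reads in the D library, or 1308 reads per 1000000 clean reads (RPM; 95% Wilson interval 1290 to 1326). They summed to 8690 reads in the P library, or 553 RPM (542 to 565). The log2 ratio of the sums, peak lactation over dry period, was -1.24 per clean read, and it was 0.84 per conserved miRNA read, 0.06 with TMM factors and 0.15 with DESeq2 size factors, so its sign depended on the scaling. As a share of conserved miRNA reads the cluster held 0.214% (0.211 to 0.217) in the D library and 0.383% (0.376 to 0.392) in the P library, a ratio of 1.79. In whole tissue, fewer cells of a type and less RNA per cell cannot be told apart. Intervals cover counting error only, since reads copied by PCR are not independent molecules.

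A few miRNAs supplied most of the cluster reads. miR-127, miR-379, miR-432 and miR-411 together held 75.8% of the cluster reads in the D library (95% Wilson interval 75.2 to 76.4) and 73.8% in the P library (72.9 to 74.7). Within this set the balance shifted, since miR-432 went from 14.5% to 4.66% of the cluster reads and miR-411 from 6.96% to 13.2%. miR-127 led the cluster in the D library with 31.6%, and miR-379 led it in the P library with 28.3%.

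**Figure D1:**
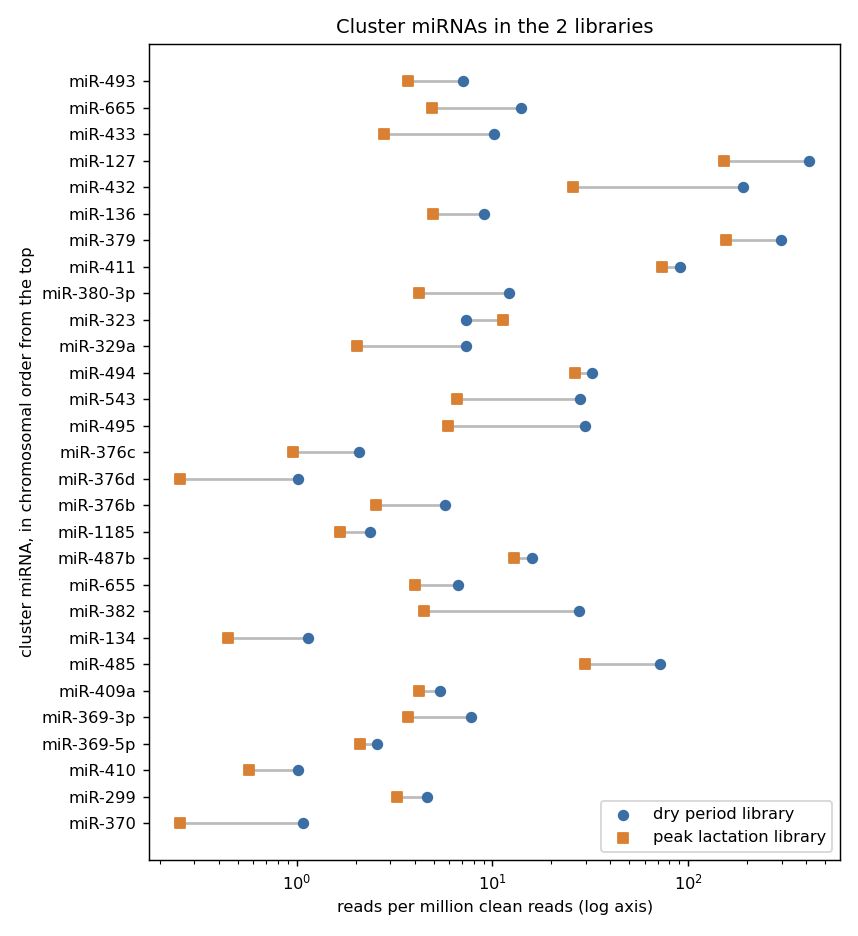
Level of the 29 cluster miRNAs with at least 1 RPM in a library, in RPM on a log axis. Circles stand for the D library and squares for the P library, 1 pooled library each, with miR-299 and miR-370 last because they were not placed. miR-323 is the only miRNA with its square to the right of its circle, and the other 28 lie to the left on this scale, a direction that reversed for most of them per conserved miRNA read and with TMM or DESeq2 size factors.

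Of the 43 members, 37 had reads in both libraries. miR-1197, miR-329b, miR-377, miR-412 and miR-487a had reads in the D library only, from 1 to 3 each. miR-539 had 1 read, in the P library. A count of 0 allows up to 3 reads, or 0.202 RPM in the D library and 0.191 RPM in the P library, so presence in a single library was not distinguishable at this depth. The comparison was made for the 29 members with at least 1 RPM in a library, and each of the 14 others had under 10 reads in both libraries.

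Members were mostly lower in the P library per clean read, with a smaller share called than among all conserved miRNAs, and the direction reversed for the cluster median when the libraries were scaled by conserved miRNA reads, TMM factors or DESeq2 size factors. Calls required an absolute log2 ratio above 1 with an Audic-Claverie p below 0.01. In the P library 14 of the 29 members (48.3%) were called lower per clean read, beside 67.7% of all 257 conserved miRNAs tested and 70.2% of the 228 outside the cluster. No member was called higher, beside 1.17% of all, and miR-323 alone had a higher level at p below 0.01 without the fold threshold. The median log2 ratio of the members was -1.13 (quartiles -1.85 and -0.52), beside -1.44 for all conserved miRNAs (quartiles -2.15 and -0.92). Relative to that overall median, 18 of the 29 members lay above it and 10 below it, and miR-127 was itself the median. Per conserved miRNA read, 13 members and 33.1% of all tested were called higher, and no member and 5.84% of all were called lower. With TMM factors 3 members were called lower and 3 higher, beside 18.7% and 8.56% of all, and with DESeq2 size factors 2 and 6, beside 16.3% and 10.9%. Per clean read of 21 to 23 nt, 6 members were called lower and 1 higher, beside 31.9% and 3.5% of all. Scaling to the conserved miRNA reads added 2.08 to each log2 ratio, TMM factors 1.30, DESeq2 size factors 1.40 and the clean reads of 21 to 23 nt 0.83.

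**Figure D2:**
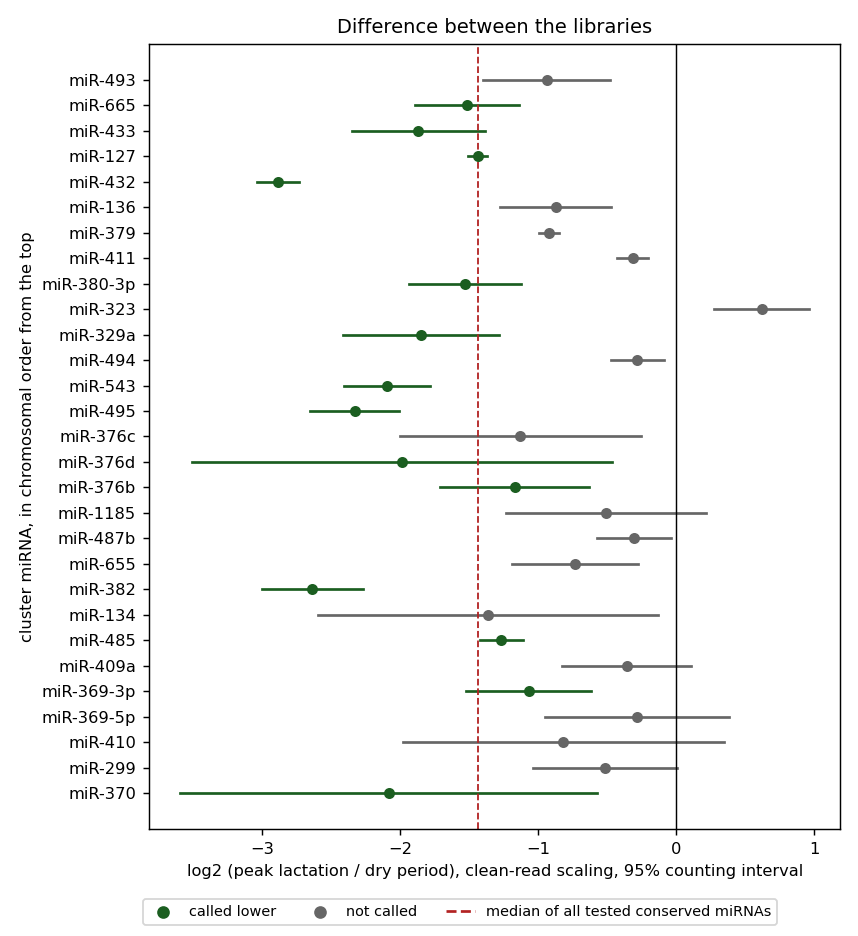
Log2 ratio of peak lactation over dry period per clean read for the same 29 miRNAs, with 95% counting intervals, 0 as a solid line and the median of all 257 conserved miRNAs tested (-1.44) as a dashed line. Green points are the 14 called lower on this scale, and the values run from -2.88 for miR-432 to 0.62 for miR-323; the position relative to the dashed line, unlike that relative to 0, does not depend on the scaling.

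The group around RTL1 and MEG3 held miR-127, the leading member in D, and miR-432, the member with the lowest ratio. miR-127, which pairs fully with the RTL1 transcript, had 6141 reads in the D library and 2396 in the P library, or 413 and 152 RPM. Its log2 ratio was -1.44 (95% interval -1.51 to -1.37) per clean read. miR-432 had 2824 and 405 reads, or 190 and 25.8 RPM. Its level was 7.38-fold lower in the P library per clean read, a log2 ratio of -2.88 (-3.03 to -2.73), which was -1.44 relative to the median of all. It was lower under each scaling run.

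miR-433 had 152 and 44 reads, a log2 ratio of -1.87 (-2.35 to -1.39; exact Audic-Claverie p = 1.09e-16). miR-136 had 135 and 78 reads, a log2 ratio of -0.87 (-1.27 to -0.47). The hairpins of both also lie antisense to RTL1, and their values fell on opposite sides of that of miR-127. Upstream of this set, miR-665 had 208 and 77 reads (log2 ratio -1.52) and miR-493 had 105 and 58 (-0.94). For this group of 6 the median was -1.48 and 4 members were called lower per clean read, beside -1.44 and 67.7% for all. Per conserved miRNA read the median was 0.61 and 2 were called higher, beside 0.64 and 33.1% for all. The group was thus near all conserved miRNAs on both scales. The group summed to 644 RPM in the D library and 195 in the P library.

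Pairs of miRNAs were compared by their reads in the 2 libraries, which needs no scaling, and p-values of Fisher's exact test (two-sided) were adjusted by the Benjamini-Hochberg method over 7 pairs. miR-432 was lower relative to its neighbour miR-127 by a log2 difference of -1.44 (-1.61 to -1.28; adjusted p = 2.98e-75). miR-136 was higher relative to miR-127 by 0.57 (0.16 to 0.97; adjusted p = 0.0201). For miR-433 and miR-127 the difference was -0.43 with an interval from -0.92 to 0.06 (adjusted p = 0.127), and it was 0.15 when only tags identical to the listed sequences were counted. The miRNAs within the RTL1 span thus had unequal ratios between the libraries.

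The array from miR-379 to miR-410 opened with 2 abundant members that lay above the median of all. miR-379 had 4402 and 2462 reads, or 296 and 157 RPM, with a log2 ratio of -0.92 (-0.99 to -0.85) per clean read. miR-411, encoded next to it, had 1352 and 1150 reads, or 91.0 and 73.2 RPM, with a log2 ratio of -0.31 (-0.43 to -0.20). Relative to the median of all, miR-379 lay 0.52 higher and miR-411 1.12 higher, and both log2 ratios were above 0 per conserved miRNA read and with TMM or DESeq2 size factors. The ratio of miR-379 was below that of miR-411 by 0.60 (log2 difference -0.60, -0.74 to -0.47; Fisher's exact test, adjusted p = 4.09e-18).

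miR-323, miR-494 and miR-487b also lay well above the median of all. miR-323 had 109 reads in the D library and 177 in the P library, 7.34 and 11.3 RPM. Its log2 ratio was 0.62 (0.27 to 0.96; exact Audic-Claverie p = 4.58e-04). This was 2.06 above the median of all and above 0 under each scaling run. The p depended on the counting. With identical tags only, the log2 ratio of miR-323 was 0.45 (exact Audic-Claverie p = 0.107). With a stretch of at least 20 nt it was 0.51 (exact Audic-Claverie p = 0.0286). With shifted 5′ ends counted or 1 mismatch allowed, p stayed below 0.01. miR-494 had 478 and 416 reads (log2 ratio -0.28, exact Audic-Claverie p = 0.00354) and miR-487b had 237 and 203 (-0.30, exact p = 0.027). Both were below 0 per clean read and above 0 under each of the 4 other scalings.

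miR-382, miR-495 and miR-543 were the abundant members of the array that lay furthest below the median of all. miR-382 had 411 and 70 reads, or 27.7 and 4.45 RPM, a log2 ratio of -2.64 (-3.0 to -2.27; exact Audic-Claverie p = 2.85e-64). miR-495 had 442 and 93 reads, a log2 ratio of -2.33 (-2.65 to -2.01). miR-543, its neighbour, had 416 and 103 reads, a log2 ratio of -2.10 (-2.41 to -1.78). miR-382 lay 1.20 below the median of all, miR-495 0.89 below and miR-543 0.66 below (log2 differences of -1.20, -0.89 and -0.66). miR-495 and miR-543 have similar listed 3′ parts, and their ratios differed by -0.23 with an interval from -0.68 to 0.21 (Fisher's exact test, adjusted p = 0.399).

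The remaining members of the array with at least 100 reads in a library lay nearer to the median of all. miR-485 had 1063 and 467 reads, or 71.6 and 29.7 RPM, with a log2 ratio of -1.27 (-1.42 to -1.11). miR-380-3p had 180 and 66 reads (log2 ratio -1.53) and miR-329a had 109 and 32 (-1.85). All 3 were called lower per clean read, whereas per conserved miRNA read their log2 ratios were 0.82, 0.56 and 0.23. The 22 tested members of the array had a median of -0.99 with 9 called lower per clean read, beside 67.7% of all called lower. Per conserved miRNA read their median was 1.09 with 11 called higher, beside 33.1% of all called higher.

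Both arms of the miR-369 hairpin were sequenced. The 3p arm had 115 and 58 reads, a log2 ratio of -1.07 per clean read. The 5p arm had 38 and 33 reads, a log2 ratio of -0.28. The 3p arm was thus the more abundant in both libraries, and the arms' ratios differed by -0.78 with an interval from -1.60 to 0.03 (Fisher's exact test, adjusted p = 0.105). With identical tags only the difference was -1.31 (-2.31 to -0.30; adjusted p = 0.0215).

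The miR-376 family was sparse when counted by its listed sequences. miR-376b had 85 and 40 reads, miR-376c 31 and 15, miR-376d 15 and 4, and miR-376a 1 and 2. The log2 ratios per clean read were -1.17 for miR-376b, -1.13 for miR-376c and -1.99 (-3.51 to -0.47) for miR-376d, and each was above 0 per conserved miRNA read. With 1 mismatch allowed, miR-376d had 130 and 120 reads, and its log2 ratio per clean read was -0.20 and no longer called. miR-376b and miR-376d, which share a seed, differed by 0.82 with an interval from -0.86 to 2.5 (Fisher's exact test, adjusted p = 0.429).

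The 7 other members tested, miR-1185, miR-134, miR-299, miR-370, miR-409a, miR-410 and miR-655, had 15 to 99 reads in the D library and 4 to 66 in the P library. miR-370, a member outside both groups, was the only one of these called lower per clean read, with 16 and 4 reads (log2 ratio -2.08, -3.59 to -0.57). miR-134, known in neurons as a regulator of dendritic spines, had 17 and 7 reads (log2 ratio -1.36, not called).

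Many miRNAs of the cluster ended or began away from the listed sequence, and these variants were read from the tags. Reads were placed by positions 4 to 19 of the listed sequence and the bases before them. A shifted 5′ end was present in 5.0% of cluster reads in the D library and 7.01% in the P library, beside 3.01% and 3.93% over all conserved miRNAs. These reads came largely from 6 members with over 10% shifted in both libraries. Such shares were not rare outside the cluster, since of the 136 conserved miRNAs with at least 500 reads 21 had over 10% shifted over both libraries together, 2 of them members (miR-411, ranked 11, and miR-495, ranked 12). The median shifted share was 0.99% for the 8 members in this set and 0.943% for the 128 others. A shift of the 5′ end moves the seed, so the most common shifted tags are shown for the 3 members with the highest shares, with bases 2 to 8 of each tag in capitals.
miR-411, 1 nt later: uAGUAGACcguauagcguac
miR-323, 1 nt earlier: gCACAUUAcacggucgaccucu
miR-495, 1 nt later: aACAAACAuggugcacuucuuu

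miR-411 began 1 nt later in 533 of 1850 reads in the D library (28.8%, 95% Wilson interval 26.8 to 30.9) and in 431 of 1545 in the P library (27.9%, 25.7 to 30.2). The seed of these reads was AGUAGAC, while that of miR-379, the neighbour in the array, is GGUAGAC. miR-323 was shifted in 52 of 156 reads (33.3%) and in 84 of 253 (33.2%), nearly always by 1 nt towards an earlier start. miR-495 was shifted in 156 of 597 reads (26.1%) and in 49 of 142 (34.5%), by 1 or 2 nt towards a later start.

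The other members of this set were miR-299, with 19% and 12.1% shifted, miR-487b, with 17.2% and 12.2%, and miR-382, with 13.2% and 14.6%. Among the 3 most abundant members a shifted start was rare, at 0.76% and 0.375% for miR-127, 0.317% and 0.284% for miR-379 and 1.27% and 0.741% for miR-432. In 19 members with at least 50 reads in each library, no difference in the shifted share between the libraries reached an adjusted p below 0.05 (Fisher's exact test with Benjamini-Hochberg adjustment). The unadjusted p was below 0.05 for miR-495 only (exact p = 0.0481, adjusted 0.489).

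**Figure D3:**
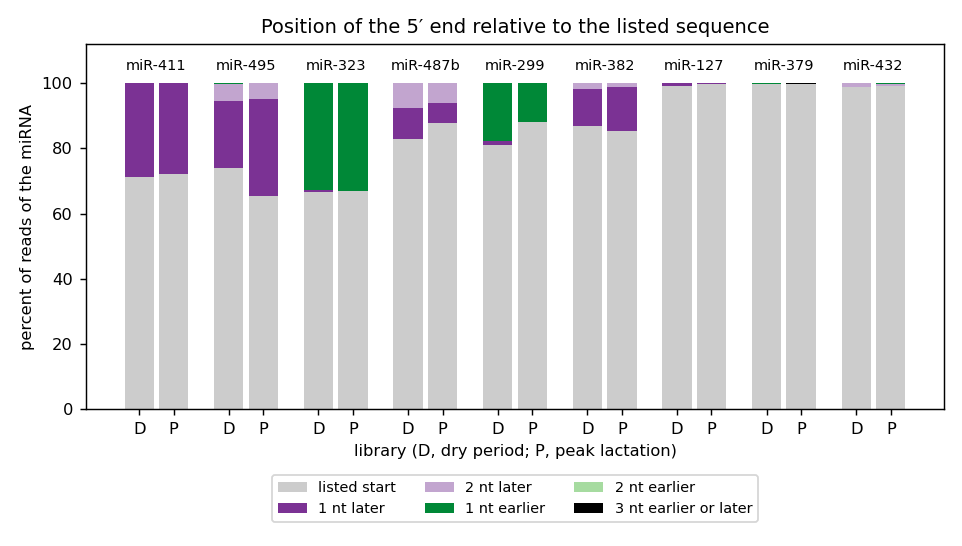
Percent of the reads of a miRNA by the position of the 5′ end, in the D library and the P library, for the 6 members with over 10% shifted in both libraries and the 3 most abundant members. Grey is the listed start, purple a later start and green an earlier one. The later starts of miR-411 (28.8% and 27.9%) and the shifted starts of miR-323 (33.3% and 33.2%, nearly all earlier) have like shares in both libraries.

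Reads identical to the listed sequence were a minority for miR-127 and miR-379, which ranked 110 and 131 among 136 conserved miRNAs with at least 500 reads by that share. This was not particular to them, since miR-411 and miR-432 ranked 120 and 128 and the median share over the 136 was 44.2%. Selected tags of miR-127 and miR-379, from among their most common ones, are shown to set their 3′ ends side by side, with bases 2 to 8 in capitals. Not shown are the miR-127 tag longer by U, with 773 reads in D and 203 in P, and the miR-379 tag without the last base, with 610 and 373. Both had more reads than the last tag shown for the same miRNA.
miR-127, identical: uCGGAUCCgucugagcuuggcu
miR-127, ending in AU: uCGGAUCCgucugagcuuggcau
miR-127, longer by AU: uCGGAUCCgucugagcuuggcuau
miR-379, identical: uGGUAGACuauggaacguaggc
miR-379, longer by AU: uGGUAGACuauggaacguaggcau
miR-379, ending in A: uGGUAGACuauggaacguagga

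The identical tag of miR-127 had 2085 reads in the D library and 641 in the P library, or 34.0% (32.8 to 35.1) and 26.8% (25 to 28.6) of its reads. The tag ending in AU had 1109 and 554 reads. The identical tag of miR-379 had 748 and 262 reads, or 17% (15.9 to 18.1) and 10.6% (9.48 to 11.9), and its tag longer by AU had 645 and 448. For both miRNAs the intervals of the identical share did not overlap between the libraries. Over the pooled reads of all conserved miRNAs this share was also lower in the P library, at 66.3% (66.3 to 66.4) in D and 61.4% (61.4 to 61.5) in P. The pool is weighted by reads. Per miRNA with at least 500 reads over both libraries, the median share was 44.2% for all 136 and 40.5% for the 8 members. In the pooled reads of the cluster without miR-127 and miR-379 the identical share was higher in P, at 37.2% (36.2 to 38.3) and 43.5% (41.9 to 45.1). The make-up of this pool differed between the libraries. miR-432, with 19.9% and 16.5% identical, held 2824 of its 8882 reads in D and 405 of 3832 in P. Single members went both ways, such as miR-485 at 47.8% and 51.8% and miR-543 at 50.5% and 45.6%, with overlapping intervals for both. Counted by identical tags alone, miR-379 had a log2 ratio of -1.59 per clean read in place of -0.92, and would be called lower.

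A 3′ tail made only of A and U, with both bases in it, was present in 28.2% and 34.1% of miR-127 reads, 21.6% and 26.2% of miR-379 reads and 9.07% and 14.3% of miR-432 reads. miR-411, miR-485 and miR-494 had 0 to 0.721% of such reads. Over all conserved miRNAs the share was 1.05% in the D library and 1.20% in the P library. Among 136 conserved miRNAs with at least 500 reads over both libraries, miR-127 ranked 1 and miR-379 ranked 2 by this share, while the median of the 8 members among them was 0.691%, close to 0.635% for all. miR-432 ranked 10. Without miR-127 and miR-379 the cluster had 3.66% and 2.37% of such tails. Most of these were of miR-432, with 256 of the 325 reads in D and 58 of the 91 in P. miR-432 held 2824 of the 8882 reads of this pool in D and 405 of 3832 in P, so the 2 pooled shares also differ in make-up. Whether the added bases lie in the hairpins was not analysed here.

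**Figure D4:**
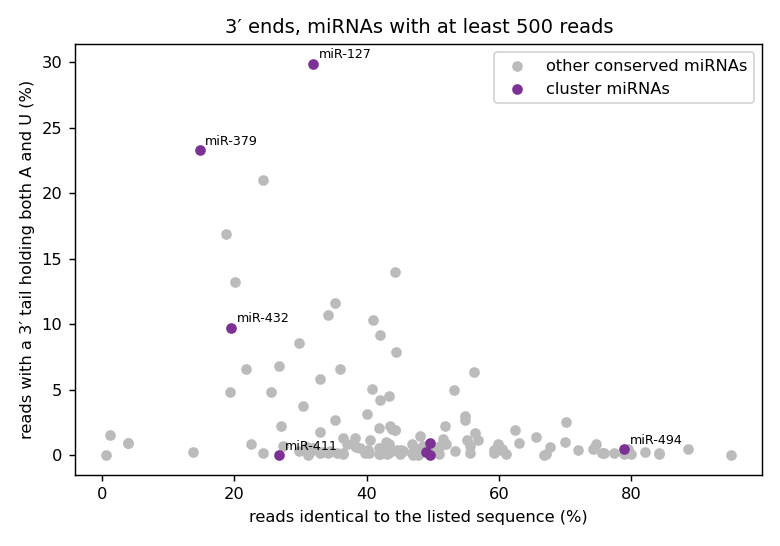
Percent of reads with a 3′ tail that holds both A and U and no other base, against the percent of reads identical to the listed sequence, both libraries together, for the 136 conserved miRNAs with at least 500 reads. Purple points are the 8 cluster members among them, and miR-127 (29.9%) and miR-379 (23.3%) have the highest tail shares.

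Cluster reads were less concentrated at 22 nt than the pooled reads of all conserved miRNAs. That pool is weighted by reads, and let-7a and let-7f, both listed at 22 nt, held most of it in the D library. They had 2628486 and 2718302 of its 9236864 counted reads. Lengths were not compared miRNA by miRNA, so the contrast is not one with a typical conserved miRNA. In the D library 32.0% of cluster reads were 22 nt long and 31.3% were 23 nt long, beside 64.6% and 16.1% of all conserved miRNA reads. In the P library 28.5% were 22 nt and 28.4% were 23 nt, beside 55.3% and 17.3%. Reads of 24 nt made up 12.1% and 13.1% of the cluster and 2.37% and 3.70% of all. The abundant miR-379 tag longer by AU was one of these. With each unique tag counted once, 55.4% and 53.9% of cluster tags were 21 to 23 nt long, beside 47.8% and 47.0% of all conserved miRNA tags, whereas of the reads 77.9% and 72.9% of the cluster were in this range, beside 92.5% and 89.1%.

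**Figure D5:**
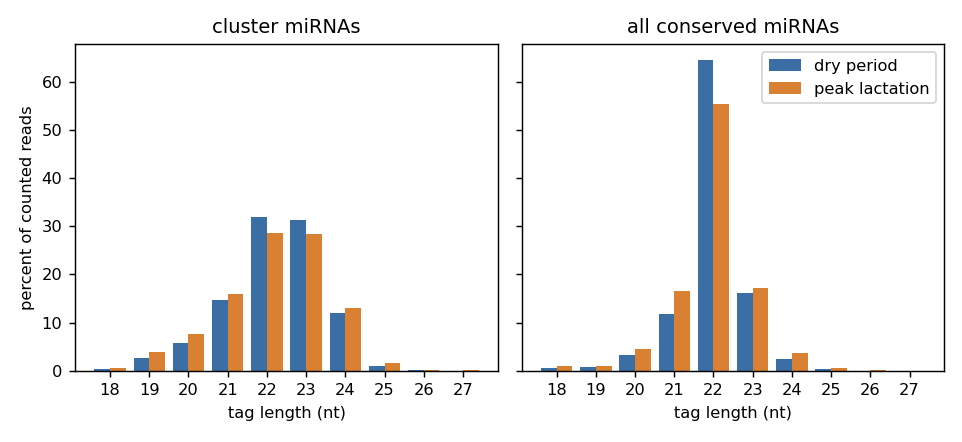
Length of the counted tags in nt, as percent of the counted reads, for the cluster (left) and all conserved miRNAs (right), with blue bars for the D library and orange bars for the P library. The cluster has nearly equal bars at 22 and 23 nt (32.0% and 31.3% in the D library), whereas all conserved miRNAs peak at 22 nt (64.6%).

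For miR-329a the listed 3′ end was nearly absent from the tags. Identical tags numbered 2 of 109 reads in the D library and 0 of 32 in the P library, which allows a share of up to 10.7% (Wilson). The leading tag, with 16 and 10 reads, is shown to set its end beside that of the listed sequence.
miR-329a, listed: aACACACCugguuaaccuuuu
miR-329a, leading tag: aACACACCugguuaaccucucu

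Single base changes within the first 20 nt were counted in tags that matched no other conserved miRNA, with positions counted from the 5′ end of the listed sequence. Transcripts of the cluster, those of the miR-376 family above all, are known substrates of the ADAR deaminases, which turn adenosine into inosine, read as G. A position was named where A-to-G reads numbered at least 10 and exceeded every other mismatch of the member, and 2 positions met this, both in the seed. The changed base is in capitals.
miR-379, A5G: ugguGgacuauggaacguaggc
miR-411, A6G: auaguGgaccguauagcguac

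In miR-379, A5G was present in 56 of 4549 reads in the D library (1.23%, 95% Wilson interval 0.949 to 1.60) and in 23 of 2532 in the P library (0.908%, 0.606 to 1.36). The next most common mismatch of miR-379, U4G, had 28 reads over both libraries. In miR-411, A6G was present in 27 of 1405 reads (1.92%, 1.32 to 2.78) and in 15 of 1176 (1.28%, 0.774 to 2.09). Its next mismatch, A6C, had 13 reads. Among 643 A positions of conserved miRNAs with at least 500 reads, the A-to-G share of miR-411 at position 6 ranked 6 and that of miR-379 at position 5 ranked 7, with a median of 0.0399%. A difference between the libraries was not detected by Fisher's exact test (adjusted p = 0.239 for both). Editing, a variant of the genome and sequencing error were not tested as sources of these reads.

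A different change dominated the reads placed at miR-376d. Of the reads with at most 1 mismatch to miR-376d and to no other conserved miRNA, 109 of 127 in the D library (85.8%) and 113 of 119 in the P library (95%) carried U2A. These outnumbered the reads of the listed miR-376d in both libraries. Whether they come from miR-376d or from a sequence that the list lacks was not tested. The change lies in the seed, and the leading tag, with 69 and 77 reads, is shown beside the listed sequence, with the changed base in capitals in the tag and the seed in capitals in the listed sequence.
miR-376d, listed: aUCAUAGAggaaaauccacau
leading tag with U2A: aAcauagaggaaaauccacauu

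Markers of cell types and miRNAs of other imprinted loci were read beside the cluster. The calls are to be read beside the 67.7% of all 257 conserved miRNAs tested that were called lower per clean read. The 6 miRNAs of stroma and smooth muscle summed to 22050 RPM in the D library and 6529 RPM in the P library (log2 ratio -1.76). Of these 6, 5 were called lower per clean read. The 6 epithelial miRNAs summed to 2687 and 1342 RPM (-1.0, 3 called lower), so the labelled mammary tissue had epithelial markers in both libraries. The 4 muscle miRNAs summed to 7241 and 3847 RPM (-0.91). Nearly all of this was miR-1, with 7175 and 3835 RPM, which was not called, while the 3 others were called lower. The 5 immune cell miRNAs summed to 497 and 178 RPM (-1.48, 4 called lower) and the 2 endothelial miRNAs to 129 and 81.4 RPM (-0.66, none called).

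Per clean read the 3 red blood cell miRNAs went the other way, from 110 to 190 RPM (0.79), with 2 called higher. Of all conserved miRNAs tested, 1.17% were called higher on this scale. The 4 neuronal miRNAs summed to 12.3 and 6.87 RPM (-0.84), with miR-124a and miR-124b, which took the same reads, called lower per clean read. The sums of stroma and of immune cells lay below the median of all (-1.44). Those of epithelium, muscle, endothelium, neurons and red blood cells lay above it. All these sums are per clean read, and the sign of those below 0 depends on the scaling. None of the listed markers of any cell type was at 0 in either library. The part of these cell types in the cluster's values was not tested. Of the other imprinted loci, miR-296 (GNAS) had 1437 and 209 reads (log2 ratio -2.86 per clean read), miR-335 (MEST) had 166 and 156 (-0.17), and miR-483 (IGF2) had 0 and 1. The imprinted miRNAs outside the cluster therefore lay on both sides of the median of all.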

How the data were processed

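The authors size-selected RNA under 30 nt, sequenced it on the Solexa platform, removed low-quality, adaptor-contaminated, insert-free and poly(A) reads and those below 18 nt, and collapsed identical reads. The deposited files hold unique tags with their read counts, unnormalized and unaligned. The processing notes name CASAVA, with no version given in the sources used here.

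Each tag went to the listed conserved miRNA that it matched furthest from its first base (18 nt or more, any 3′ end), and to each where several tied. Counts were divided by clean reads and multiplied by 1000000, and a count of 0 was set to 0.01 RPM. miRNAs under 1 RPM in both libraries were not tested. Calls used the Audic-Claverie probability (two-sided, smaller tail, below 0.01) with an absolute log2 ratio above 1, over all conserved miRNAs. Shares have 95% Wilson intervals, and 3 reads were the smallest detectable count. With 1 library of 14851375 (dry period) or 15712891 (peak lactation) clean reads per stage, intervals cover counting error only. Alternatives changed the counting, the scaling (edgeR 4.0.16 TMM, DESeq2 1.42.0 size factors, conserved miRNA reads, 21 to 23 nt reads) and the thresholds. Python 3.11.15, scipy 1.17.1 and R 4.3.3 were used, and the steps were tested on simulated data. Sequences were taken from the study's list and the deposited tags, gene order from RefSeq.

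miRNAs described singly had at least 100 reads in a library, or belonged to miR-376 or miR-369, or were added as a feature's example after their values were seen (miR-299, miR-370 and miR-134). The members, lists, pairs and tests were chosen with earlier results of these data known. The count and fold columns of the study's own comparisons were not used.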

Additional observations from a re-analysis of the deposited data

Results flagged for a closer look

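For 4 members, reads of 1 kind left out of the counts of the report numbered more than 3 in each library, the limit that a count of 0 allows, and came to more than 20% of the member's own count over both libraries. Tags with a shifted 5′ end were left out of the count of miR-411 in 533 reads of the dry period library and 431 of the peak lactation library, of miR-495 in 156 and 49, and of miR-323 in 52 and 84. Tags with 1 mismatch were left out of the count of miR-376d in 115 and 116 reads, nearly all with U2A, whereas its own count was 15 and 4. The members were selected by this rule for having such reads, and no cause was tested.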

How the results depend on the processing

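Each scaling added 1 value to all log2 ratios, so the order of the members stayed and the calls moved. Per conserved miRNA read, TMM factors, DESeq2 size factors and clean reads of 21 to 23 nt, the members called lower numbered 0, 3, 2 and 6 in place of 14, and those called higher 13, 3, 6 and 1 in place of 0. Over all conserved miRNAs, 15, 48, 42 and 82 were called lower in place of 174 and 85, 22, 28 and 9 higher in place of 3. The median of the members became 0.96, 0.17, 0.27 and -0.30, and the log2 ratio of the sum 0.84, 0.058, 0.15 and -0.41. Per conserved miRNA read, log2 ratios above 0 were 0.64 for miR-127, 1.21 for miR-136, 0.23 for miR-329a, 1.02 for miR-369-3p, 1.80 for miR-369-5p, 0.92 for miR-376b, 0.96 for miR-376c, 0.10 for miR-376d, 1.16 for miR-379, 0.56 for miR-380-3p, 1.77 for miR-411, 0.21 for miR-433, 0.82 for miR-485, 1.78 for miR-487b, 1.15 for miR-493, 1.80 for miR-494 and 0.57 for miR-665. With TMM factors, log2 ratios above 0 were 0.43 for miR-136, 0.23 for miR-369-3p, 1.01 for miR-369-5p, 0.13 for miR-376b, 0.17 for miR-376c, 0.38 for miR-379, 0.98 for miR-411, 0.032 for miR-485, 0.99 for miR-487b, 0.36 for miR-493 and 1.02 for miR-494. With DESeq2 size factors, log2 ratios above 0 were 0.52 for miR-136, 0.33 for miR-369-3p, 1.11 for miR-369-5p, 0.23 for miR-376b, 0.27 for miR-376c, 0.48 for miR-379, 1.08 for miR-411, 0.13 for miR-485, 1.09 for miR-487b, 0.46 for miR-493 and 1.11 for miR-494. Per clean read of 21 to 23 nt, log2 ratios above 0 were 0.55 for miR-369-5p, 0.52 for miR-411, 0.53 for miR-487b and 0.55 for miR-494. With p alone, 1 member and 7 of all miRNAs were higher, and with shifted 5′ ends counted 6 of all were. The median of the members was -1.02 with a stretch of at least 20 nt and -0.999 with 1 mismatch allowed, which also ended the call of miR-376d (-0.20). With identical tags only, the log2 ratio of the sum was -1.34, that of miR-369-5p was 0.26, the difference between miR-433 and miR-127 was 0.15, that between the miR-369 arms was -1.31, and the 4 leading members held 61.2% and 49.8% of the cluster reads. With shifted 5′ ends counted these 4 held 75.1% of the D library's. Counted once per unique tag, 55.4% and 53.9% of the cluster were 21 to 23 nt long, beside 77.9% and 72.9% of its reads. Ties split equally and 1 read added to every count changed no call of the 22 members named and tested. No cause was tested.

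No paired analysis was possible because each stage had 1 library, and leaving out a library was not run for the same reason. The stages cannot be told apart from the libraries or the goats pooled. Members under 1 RPM in both libraries were left untested, the calls of miR-370 and miR-376d rest on 4 reads each in the P library, and levels were not compared as molecules per cell.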
